A study of Homo sapiens with 2 samples.

Results

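The SR and hnRNP splicing factors examined here are 40 genes listed by name. No measured value enters the rule, but the list was drawn up with earlier results of these data known. They comprise 11 SR proteins, 2 TRA2 proteins, 17 hnRNP genes, 3 polypyrimidine tract-binding (PTB) proteins, 5 regulators of tissue-specific splicing and 2 CLK kinases. They are 40 of the 41582 gene symbols to which the deposited transcripts could be matched, and they hold 716 of the 177816 transcripts. RNA was sequenced from U87, an established human glioblastoma cell line given in the labels as wild type (WT), after 72 h with DMSO, the solvent, or with CCA-1.1, a curcumin analog. There was 1 library per condition and both came from the same line, so no spread between cultures could be estimated, no test was run, and each difference below is between 2 libraries. The concentration of CCA-1.1 used for the RNA is not given in the sources used here.

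Pre-mRNA splicing is carried out by the spliceosome, and SR and hnRNP proteins decide, by binding the transcript, which exons it joins. SR proteins mostly favour inclusion of the exons they bind, hnRNPs often oppose it, and CLK kinases phosphorylate the SR proteins. Many of these genes limit their own protein through a poison exon, a short exon with an early stop codon whose inclusion sends the transcript to nonsense-mediated decay (NMD), or through retained introns. RefSeq often lists such transcripts as non-coding, with the prefix NR for curated and XR for predicted entries, while coding transcripts carry NM or XM.

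Values are TPM, a relative abundance that is corrected for transcript length, so levels can be compared between genes, and a gene's level is the sum over its transcripts. The differences given on the log2 scale are CCA-1.1 minus DMSO of log2(TPM + 1), which understates the change of low genes. The comparison set, called background genes, was made up of 7906 genes that code for protein and whose 2 libraries averaged 10 TPM or more. The read depth of the libraries is unknown, since TPM keeps no depth, and therefore no counting interval is given. Of the glioblastoma line markers, VIM was at 3217 and 3106 TPM in the DMSO and CCA-1.1 libraries and CHI3L1 at 4947 and 4397 TPM. Of the same markers, NES was at 7.53 and 7.62 TPM. The astroglial marker GFAP (0.41 and 0.57 TPM) and the line marker SOX2 (1.87 and 1.45 TPM) were near 0, and S100B was listed at 0 in both. Of 12 markers of neurons, oligodendrocytes, leukocytes, endothelium and epithelium, only CD68 (494.2 and 397.1 TPM, -0.31 on the log2 scale), SYP (47.4 and 43.2 TPM, -0.13) and SNAP25 (22.0 and 16.8 TPM, -0.37) were above 10 TPM, while PTPRC was below 0.1 TPM and AIF1 and MOG were at or near 0. CD68, SNAP25 and the line marker CD44 (607.4 and 472.6 TPM, -0.36) were thus lower with CCA-1.1 by more than 1.2-fold. Markers under 10 TPM that were higher by more than 1.2-fold were OLIG2 (5.64 and 7.03 TPM, 0.27), RBFOX3 (1.83 and 2.45 TPM, 0.29) and MBP (1.22 and 1.95 TPM, 0.41). The part of such shifts in the differences of the splicing factors was not tested. Fewer cells of a kind and less RNA per cell cannot be told apart in such bulk libraries.

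Stop-bearing exons of 5 SR and TRA2 genes, a single exon for each gene, are shown as examples of what can mark an unproductive transcript of these genes. They were taken from the GENCODE annotation on GRCh37, as internal exons of a transcript annotated for NMD that overlap no exon of the gene's MANE Select transcript. Each is printed from the first base of the exon to its stop codon, which stands in capitals. The exons lie at chr6:36567598-36568053 (SRSF3, plus strand, 456 bases), chr20:42087793-42088060 (SRSF6, plus, 268 bases), chr2:38976040-38976488 (SRSF7, minus, 449 bases), chr7:23561751-23562051 (TRA2A, minus, 301 bases) and chr3:185649365-185649640 (TRA2B, minus, 276 bases).
SRSF3: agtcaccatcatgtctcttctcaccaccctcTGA
SRSF6: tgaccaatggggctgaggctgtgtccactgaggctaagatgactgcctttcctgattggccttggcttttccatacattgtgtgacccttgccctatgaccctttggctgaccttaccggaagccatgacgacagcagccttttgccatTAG
SRSF7: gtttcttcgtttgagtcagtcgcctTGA
TRA2A: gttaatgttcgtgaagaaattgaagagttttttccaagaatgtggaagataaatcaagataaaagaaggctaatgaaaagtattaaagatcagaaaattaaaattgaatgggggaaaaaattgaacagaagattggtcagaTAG
TRA2B: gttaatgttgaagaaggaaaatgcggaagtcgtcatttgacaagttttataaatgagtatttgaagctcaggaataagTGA
The stop codon ends at base 34 of the printed SRSF3 exon and base 28 of the printed SRSF7 exon, and the TRA2A and TRA2B exons open with the same 9 letters. Further stop-bearing exons of SRSF3 and SRSF7 met the same definition and are not printed. An exon of this kind was annotated in 15 of the 40 genes (37.5%) and in 23.8% of 7757 background genes with a MANE Select transcript. Such an exon can be found only in a gene with a transcript annotated for NMD. That held for 33 of the 40 genes (82.5%) and for 50.1% of those background genes, so the shares with such an exon are not on equal terms. Among genes with a transcript annotated for NMD, the exon was found in 15 of 33 and in 1845 of 3889 background genes, which are similar shares. Of the 15 genes, 11 have no NR or XR transcript in the deposited table, TRA2A and TRA2B among them, so for these genes a stop-bearing form could not be followed by transcript class. Which GENCODE transcript corresponds to which RefSeq non-coding transcript was not tested.

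All 40 genes were detected in both libraries. Their levels ran from 1.03 TPM for PTBP2, the neuronal PTB protein, to 250.7 TPM for SRSF5 in the DMSO library, and from 1.25 to 292.1 TPM for the same genes in the CCA-1.1 library. The median was 54.9 TPM with DMSO and 59.2 TPM with CCA-1.1, against 35.4 and 35.5 TPM for the background genes. Together the 40 genes took 0.324% of the DMSO library and 0.338% of the CCA-1.1 library. SRSF5 was followed by HNRNPK (240.9 and 260.8 TPM), which binds C-rich RNA, HNRNPA2B1 (245.8 and 238.3 TPM), SRSF9 (207.3 and 201.7 TPM) and HNRNPC (164.0 and 170.8 TPM), which binds uridine tracts of nascent transcripts. SRSF8, PTBP2 and CLK4 were below 10 TPM, and the other 37 genes were above it on average.

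**Figure D1:**
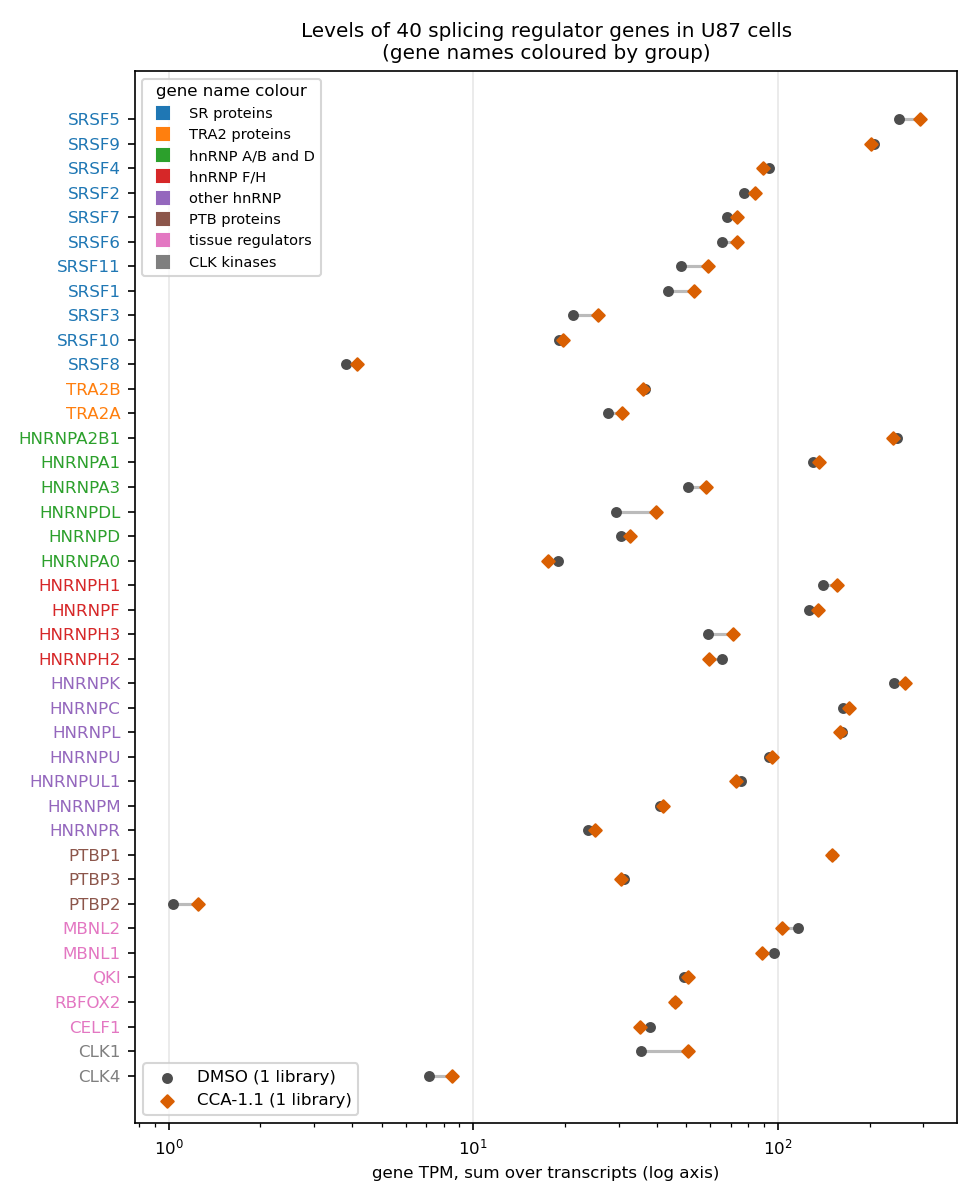
Gene TPM (sum over transcripts, log axis) of the 40 genes in the DMSO library (circles) and the CCA-1.1 library (diamonds), ordered by level within each group of genes; grey lines join the 2 values of a gene. Levels run from 1.03 TPM (PTBP2) to 292.1 TPM (SRSF5), and the widest gaps belong to CLK1 and HNRNPDL.

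At the gene level the 40 genes differed little between the libraries. None was past 2-fold, while 0.215% of background genes were, 0.0632% higher and 0.152% lower. At the smaller step of 1.2-fold, 4 of 40 were higher with CCA-1.1 and 0 were lower, where 7.44% of background genes were higher and 6.07% lower. The share of higher genes is therefore near the background. The median difference was 0.06 over the 40 genes and 0.0039 over the background genes, on the log2 scale, and 27 of 40 genes were above 0 against 51.2% of background genes. The differences ran from -0.18 to 0.50, and the 5th and 95th percentiles of the background genes were -0.29 and 0.31.

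Among the SR proteins, 9 of 11 were higher with CCA-1.1, where 51.2% of background genes were, and their median difference was 0.12. On coding transcripts only, SRSF1 (-0.017) and SRSF3 (-0.040) were below 0 and SRSF8 was at 0. SRSF11, a nuclear protein with an RS domain, was at 48.1 TPM with DMSO and 59.0 TPM with CCA-1.1 (0.29 on the log2 scale). SRSF1, the founding SR protein (gene ID 6426, chromosome 17, 57989038 to 58007246 of GRCh38.p14), was at 43.7 and 52.9 TPM (0.27). These were the only SR proteins past 1.2-fold, and SRSF1 lay just inside that step while SRSF3 (21.2 and 25.6 TPM, 0.26) lay just outside it. On curated transcripts (NM and NR) alone, SRSF11 (0.21) and SRSF1 (0.25) were no longer past the step and SRSF2 (0.30) was. SRSF5, the most abundant, differed by 0.22 on all transcripts and by 0.05 on curated ones. SRSF6 (65.8 and 73.6 TPM) differed by 0.16, SRSF2 (77.2 and 84.1 TPM) by 0.12 and SRSF7 (68.3 and 73.7 TPM) by 0.11. SRSF10 (19.1 and 19.7 TPM), a repressor when dephosphorylated, and SRSF8 (3.83 and 4.16 TPM) differed by 0.05 and 0.10. The SR proteins lower in the CCA-1.1 library were SRSF4 (93.5 and 89.6 TPM, -0.06) and SRSF9 (-0.04). The TRA2 proteins, which bind GAA-rich enhancers, did not move together: TRA2A was at 27.6 and 30.8 TPM (0.15) and TRA2B at 36.7 and 36.2 TPM (-0.02, or -0.27 on curated transcripts).

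**Figure D2:**
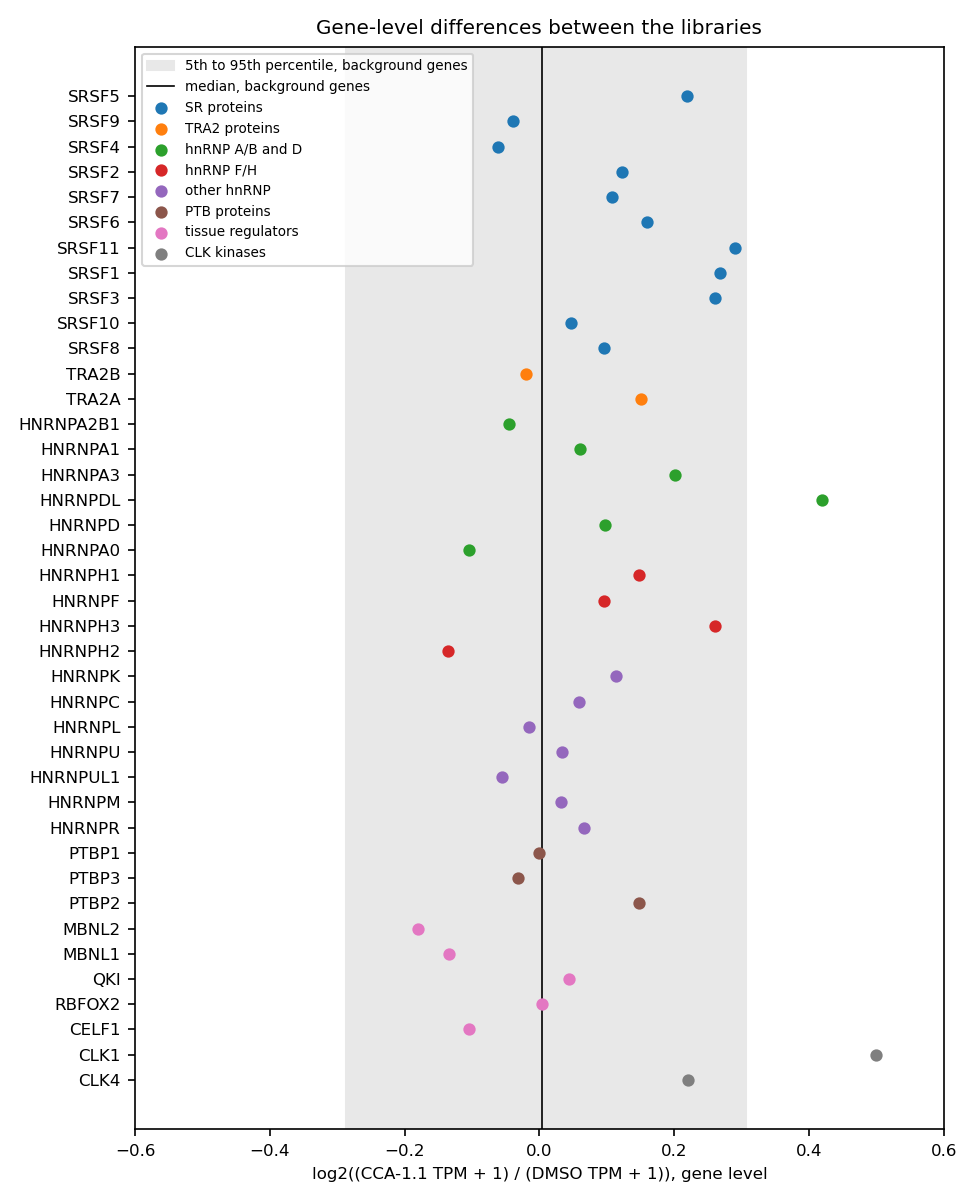
Difference in log2(TPM + 1), CCA-1.1 minus DMSO, for each of the 40 genes, coloured by group; the line and the grey band are the median and the 5th to 95th percentile of background genes. Differences run from -0.18 (MBNL2) to 0.50 (CLK1), and CLK1 and HNRNPDL alone lie outside the band.

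Of the 17 hnRNP genes, 12 were higher with CCA-1.1, where 51.2% of background genes were, and the median difference was 0.06. Only 1 was past 1.2-fold, against 7.44% of background genes higher by that step. That gene was HNRNPDL, a relative of HNRNPD (gene ID 9987, chromosome 4, 82422564 to 82430462 of GRCh38.p14), at 29.4 TPM with DMSO and 39.7 TPM with CCA-1.1 (0.42). Its difference stood at the 98.2 percentile of the background genes. Of the genes for F/H proteins, which bind G-runs, HNRNPH3 was at 59.2 and 71.1 TPM (0.26), HNRNPH1 at 141.0 and 156.3 TPM (0.15) and HNRNPF at 126.9 and 135.7 TPM (0.10). HNRNPH2, the X-linked gene of this group, lay on the other side of 0, at 65.4 and 59.4 TPM (-0.14). In the A/B and D group, HNRNPA3 (50.6 and 58.3 TPM) differed by 0.20, HNRNPD (30.6 and 32.8 TPM) by 0.10, HNRNPA1 (130.6 and 136.1 TPM) by 0.06, HNRNPA2B1 by -0.04 and HNRNPA0 (19.0 and 17.6 TPM) by -0.10. HNRNPA1 has processed copies that share its sequence, and the copies HNRNPA1L2 (5.22 and 5.66 TPM), HNRNPA1L3 (4.50 and 4.23 TPM) and HNRNPA1P10 (2.54 and 2.85 TPM), looked up after the values were seen, were low beside it. The 7 other hnRNP genes differed by -0.06 (HNRNPUL1) to 0.11 (HNRNPK), with HNRNPL at 161.9 and 160.1 TPM.

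PTBP1, a repressor of neuronal exons, was at 151.1 and 151.0 TPM, and its relatives PTBP3 (31.3 and 30.6 TPM) and PTBP2 differed by -0.03 and 0.15. The tissue regulators had the lowest median, -0.10, and 3 of 5 were lower in the CCA-1.1 library, where 3857 of 7906 background genes were. MBNL2, a muscleblind protein that binds YGCY motifs, was at 116.6 and 102.8 TPM and had the lowest difference of all 40 genes (-0.18). MBNL1 (97.2 and 88.5 TPM) differed by -0.13 and CELF1 (37.9 and 35.2 TPM), which acts against muscleblind proteins on shared exons, by -0.10. None of the 3 passed 1.2-fold. QKI (49.1 and 50.7 TPM) and RBFOX2 (46.0 and 46.1 TPM) were nearly the same in both libraries. CLK1, the kinase that phosphorylates SR proteins in the nucleus (gene ID 1195, chromosome 2, 200853009 to 200864658 of GRCh38.p14), had the highest difference of the 40 genes, at 35.5 TPM with DMSO and 50.6 TPM with CCA-1.1 (0.50). This was at the 99.1 percentile of the background genes. CLK4, its close relative, was at 7.18 and 8.53 TPM (0.22).

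The 4 genes past 1.2-fold were all among the 15 that have non-coding transcripts in the table. The median difference was 0.15 over these 15 genes, of which 13 were higher with CCA-1.1, and 0.03 over the 25 genes with coding transcripts only, of which 14 were higher. Over the 2037 background genes that have both classes the median was 0.03, 8.64% were higher by 1.2-fold and 56.6% were above 0. HNRNPH3, with coding transcripts only, lay just short of 1.2-fold (0.260) and passed it with a pseudocount of 0.1 TPM (0.264). SRSF11, past 1.2-fold, had a non-coding level of 0.99 TPM with DMSO and 0.28 TPM with CCA-1.1, so its rise lay on coding transcripts.

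Of the 40 genes, 25 have no non-coding transcript in the table. Of the 15 genes with both classes, 13 averaged 10 TPM or more, and their median non-coding share was 40.1% with DMSO and 40.5% with CCA-1.1. The background genes with both classes had medians of 5.25% and 5.76%. The share was above 50% in both libraries for SRSF6 (77.1% and 78.0%), HNRNPDL (75.4% and 75.8%), HNRNPA1 (74.5% and 73.3%) and HNRNPA2B1 (55.5% and 55.0%). In SRSF6 the non-coding level rested on 1 transcript, NR_034009.2, at 50.8 and 57.4 TPM, beside coding sums of 15.0 and 16.2 TPM. HNRNPA1 had 1 such transcript too, NR_135167.2, at 97.3 and 99.8 TPM, whereas 18 of the 20 transcripts of HNRNPA2B1 are non-coding. Those 18 are all predicted XR entries, and on curated transcripts alone the HNRNPA2B1 share was 0% in both libraries. Summed over all 40 genes, non-coding transcripts made up 12.6% and 13.0% of their TPM, and over the whole libraries 9.99% and 10.0%.

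**Figure D3:**
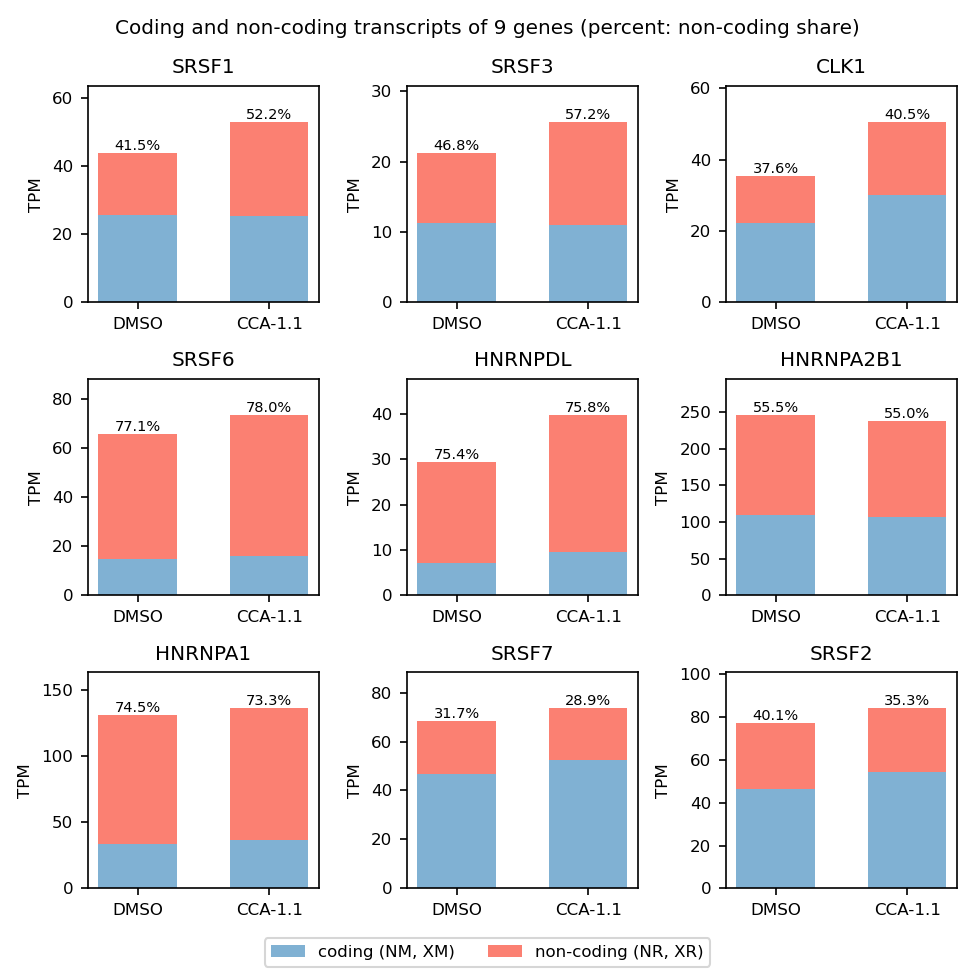
TPM on coding (NM, XM) and non-coding (NR, XR) transcripts of the 9 genes with a mean non-coding sum of at least 5 TPM, as stacked bars for the DMSO and CCA-1.1 libraries, each with the non-coding share above it. The non-coding part is larger than the coding part in both libraries for SRSF6, HNRNPDL, HNRNPA1 and HNRNPA2B1, and becomes the larger one in the CCA-1.1 library for SRSF1 and SRSF3.

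The non-coding share was higher by more than 5 percentage points in 2 of the 13 genes and lower in 0, where 8.49% of 2037 background genes were higher and 7.17% lower. The 2 genes were SRSF1, from 41.5% to 52.2% (10.7 points), and SRSF3 (gene ID 6428, chromosome 6, 36594362 to 36605600 of GRCh38.p14), from 46.8% to 57.2% (10.4 points). In both, the non-coding transcripts passed from the smaller to the larger part of the gene. The non-coding transcript of SRSF1, NR_034041.2, was at 18.1 TPM with DMSO and 27.6 TPM with CCA-1.1 (0.58 on the log2 scale), while the coding sum was at 25.6 and 25.3 TPM (-0.02). SRSF3 has 1 transcript of each class, and NR_036610.2 was at 9.93 and 14.7 TPM (0.52) while NM_003017.5 was at 11.3 and 11.0 TPM (-0.04). As estimated, the whole of the gene-level difference of SRSF1 and SRSF3 thus lay on their non-coding transcripts. The estimates divide reads that the coding and non-coding forms of a gene share, and the part of that division in these differences was not tested.

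CLK1 and HNRNPDL differed on both classes. In CLK1 the coding sum was at 22.2 and 30.1 TPM (0.42) and the non-coding sum at 13.3 and 20.5 TPM (0.59), and the share went from 37.6% to 40.5%. Its non-coding transcripts were NR_027855.2, at 7.67 and 10.3 TPM, and NR_027856.2, at 5.66 and 10.2 TPM. In HNRNPDL the coding sum was at 7.23 and 9.59 TPM (0.36) and NR_003249.2 at 22.2 and 30.1 TPM (0.42). The coding and non-coding forms of these genes were thus higher together, and their shares moved by 2.98 and 0.41 points.

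SRSF2 and SRSF7 had a lower non-coding share in the CCA-1.1 library, both under the 5-point step. The share moved by -4.85 points in SRSF2 (40.1% to 35.3%) and by -2.80 points in SRSF7 (31.7% to 28.9%). Within SRSF2 the non-coding transcripts went in different directions. NR_036608.2 was at 2.90 and 6.25 TPM (0.89), XR_429913.5 at 17.3 and 12.5 TPM (-0.44) and XR_429914.5 at 10.6 and 10.9 TPM. On curated transcripts alone the SRSF2 share was higher in the CCA-1.1 library, at 5.91% and 10.3%. In SRSF7, XR_007079573.1 was at 18.2 and 16.7 TPM and XR_007079572.1 at 3.49 and 4.63 TPM, with no curated non-coding transcript. The share of SRSF11 went from 2.06% to 0.47%, on a non-coding level under 1 TPM in both libraries. SRSF8, below 10 TPM, went from 21.9% to 28.1%, and the shares of SRSF10, HNRNPA1 and PTBP2 moved by 1.28, -1.22 and -2.15 points (PTBP2 by -8.40 on curated transcripts, at about 1 TPM), while HNRNPA3 had non-coding levels under 1 TPM.

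A mean non-coding sum of at least 5 TPM was seen in 9 genes, and of these 4 had a non-coding sum higher by 1.2-fold (SRSF1, SRSF3, CLK1 and HNRNPDL) and 0 a lower one. Among 595 background genes with the same minimum, 25.4% were higher and 14.1% lower. The coding sum was higher by 1.2-fold in 2 of the 9 genes (CLK1 and HNRNPDL) and lower in 0, against 13.4% and 6.89%. The median difference over the 9 genes was 0.17 for non-coding and 0.12 for coding sums, where the background medians were 0.048 and 0.019. Single non-coding transcripts gave a like count, with 7 of 17 at a mean of at least 1 TPM higher by 1.2-fold and 1 lower. In the whole table, 33% and 19% of non-coding transcripts with that minimum were. That wider set also holds transcripts of genes that have no coding form. RNAs held in the nucleus were also higher in the CCA-1.1 library, NEAT1 at 546.5 and 793.5 TPM (0.54) and MALAT1 at 132.2 and 192.8 TPM (0.54), and their part in the differences of the non-coding transcripts was not tested.

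**Figure D4:**
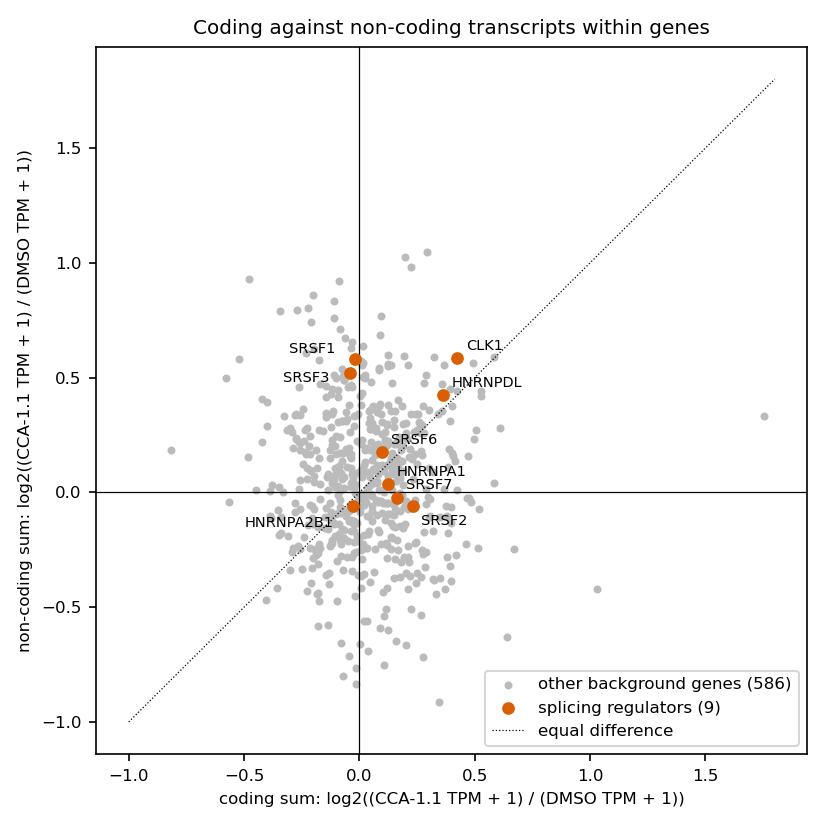
Difference in log2(TPM + 1) of the coding sum (horizontal) against that of the non-coding sum (vertical), CCA-1.1 minus DMSO, for the 9 splicing regulators with a mean non-coding sum of at least 5 TPM and the other background genes with the same minimum (grey); the dotted line marks an equal difference. SRSF1 and SRSF3 lie near 0 on the coding axis and at 0.58 and 0.52 on the non-coding axis, while CLK1 and HNRNPDL are above 0.3 on both.

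Single transcripts differed more than the gene sums. Of the 716 transcripts, 16 were past 2-fold higher and 15 past 2-fold lower in the CCA-1.1 library, where 2.23% of all transcripts in the table were past 2-fold. With a minimum mean of 1 TPM, 9 of 202 were higher and 11 lower, against 3.66% and 3.38% of transcripts with that minimum (7.04% in either direction). None of the 31 was non-coding, but only 54 of the 716 transcripts are, and 17 of those averaged at least 1 TPM. Of the 31, 27 had a larger value under 10 TPM, and 11 were listed at 0 in 1 library. They came from 13 genes, and 7 of these genes had transcripts in both directions, counts for which no background share was obtained.

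The 4 transcripts with a larger value of at least 10 TPM belonged to HNRNPL, HNRNPH1 and SRSF5. In HNRNPL, a reader of CA repeats, NM_001533.3 was at 18.2 TPM with DMSO and 2.37 TPM with CCA-1.1 (-2.51), while NM_001005335.2 was at 122.5 and 131.2 TPM and NM_001385651.1 at 2.26 and 5.86 TPM. The sum of the gene differed by -0.02. In HNRNPH1, NM_005520.3 was at 15.3 and 4.35 TPM (-1.60) and NM_001257293.2 at 13.2 and 5.16 TPM (-1.20). Other HNRNPH1 transcripts were higher, NM_001395190.1 at 29.1 and 38.8 TPM and NM_001364255.2 at 15.1 and 24.6 TPM. In SRSF5, XM_047431684.1 was at 19.1 and 43.3 TPM (1.14), and the leading transcript NM_001320214.2 was at 104.3 and 87.3 TPM. HNRNPH3 had 3 transcripts past 2-fold in each direction, all under 10 TPM. Transcripts of these genes share most of their sequence and the values are estimates that divide shared reads between them, so how much of these differences comes from that division was not tested.

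Genes of the machinery around these regulators were counted at the same step of 1.2-fold, which 7.44% of background genes passed upward and 6.07% downward. Unlike the background genes, the lists had no minimum level. A mean of 10 TPM was reached by 31 of 33 core spliceosome genes and 14 of 15 genes of NMD and the exon junction complex. It was reached by 6 of 7 splicing kinases and 20 of 30 other splicing regulators. Of 33 core spliceosome genes 1 was higher and 0 lower, with a median difference of 0.01. The gene was U2AF1, which recognises the end of the intron, at 0.82 and 8.04 TPM, and a near-identical copy, LOC102724594, was at 118.1 and 108.2 TPM, so that their sum was at 119.0 and 116.3 TPM. Of 15 genes of NMD and the exon junction complex, MAGOHB, a core component of that complex, was higher (67.7 and 85.9 TPM, 0.34) and 0 were lower, with a median of 0.05. UPF1, the helicase of NMD, was at 34.4 and 30.9 TPM (-0.15). Of 7 splicing kinases apart from CLK1 and CLK4, 0 passed in either direction and the median was 0.10, with CLK2 at 46.2 and 53.8 TPM (0.22) and SRPK1, which phosphorylates SR proteins in the cytoplasm, at 34.8 and 35.7 TPM (0.03). Of 30 other splicing regulators 4 were higher and 1 lower, with a median of 0.03. TIAL1 (48.4 and 61.1 TPM, 0.33), which binds U-rich sequence near 5′ splice sites, and SRRM1 (68.0 and 83.5 TPM, 0.29), a coactivator with RS domains, were higher, as were RBFOX3 and SRSF12 at levels under 3 TPM. SON, a scaffold of nuclear speckles, was lower, at 51.7 and 42.0 TPM (-0.29).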

How the data were processed

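The authors enriched mRNA from U87 cells, sequenced 1 library per condition, checked reads with FastQC 0.11.9 and MultiQC 1.1, and quantified transcripts with Kallisto on GRCh38.p14. The table deposited by the authors gives TPM per transcript, a unit read from the use of Kallisto and from totals of 999999 and 1e+06 per column. Transcripts were matched to symbols through a RefSeq table (169966 of 177816) and summed per gene in Python 3.11.15 with pandas 2.3.3 and numpy 2.4.6; figures used matplotlib 3.10.9. Scripts were tested on simulated data. PRPF4B was matched through its synonym PRP4K. A call was a difference in log2(TPM + 1) past 1.2-fold or 2-fold, or a share moved by over 5 percentage points. With 1 library per condition there was no test, and the count test of the study was not used on TPM. Exons came from GENCODE release 44 on GRCh37. The 40 genes and the other lists were chosen with earlier results of these data known. Named in full were the 5 highest genes, the 5 largest differences each way in level and in share, genes with a transcript past 2-fold reaching 10 TPM, and listed genes past 1.2-fold that averaged 10 TPM or more. Genes and transcripts outside this rule were named after their values were seen. Alternatives changed the pseudocount, scaling, transcript class, minimum level and share step.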

Additional observations from a re-analysis of the deposited data

How the results depend on the processing

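No paired analysis was possible because each condition had 1 library, and for the same reason no library could be left out. Of 213 values of single genes under an alternative, 198 stayed within 0.1 on the log2 scale or 1 percentage point. Of the values that had passed a step, 1 changed sign: SRSF1 on coding transcripts only (-0.017 in place of 0.27). Values under a step changed sign too. SRSF3 stood at -0.040 on coding transcripts only, in place of 0.26. The SRSF2 share moved by 4.39 points on curated transcripts, in place of -4.85. The 4 genes higher by 1.2-fold became 7 with a pseudocount of 0.01 TPM, and with curated transcripts only 1 gene was lower by 1.2-fold (TRA2B, -0.27) and 3 higher (SRSF2, HNRNPDL and CLK1), with HNRNPM at 0.21 in place of 0.03. With steps of 2 and 10 points, 21.9% and 2.5% of background genes had a higher non-coding share and 17.7% and 1.91% a lower one, and with a minimum of 1 TPM 13.8% and 12%. At 2 points, 2 of the 13 genes had a lower share. The 16 higher and 15 lower transcripts became 67 and 66 with a pseudocount of 0.1 TPM, 111 and 101 with 0.01 TPM, and 1 and 1 with a minimum mean of 10 TPM. The 16 became 9 with a minimum of 1 TPM. Scaling by the median ratio (1.003) moved no single-gene value beyond these bounds. Depth is unknown, so low values carry an error that cannot be given.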

Other observations

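Of 20 genes of the core spliceosome, NMD, kinase and other splicing regulator lists with both classes and a mean of at least 10 TPM, 3 had a non-coding share higher by more than 5 points and 2 a lower one, against 8.49% and 7.17% of background genes. They were named after their values were seen. PRPF3, a component of the U4/U6 particle, went from 9.68% to 22.0% with little difference in level (27.9 and 26.3 TPM), RBM5 from 14.8% to 22.0%, and SNRNP35 from 62.6% to 69.5%. TIA1, the relative of TIAL1, moved by -9.39 points from 27.4% and TARDBP, which limits its own transcript, from 37.1% to 31.8%.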
